A study of Mus musculus with 10 samples.

Results

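The 49 genes described here build and run the DNA replication fork: the origin recognition complex, the factors that load the MCM helicase and their inhibitor, the helicase itself, the kinase and scaffold proteins that start it, the DNA polymerases, the sliding clamp and its loader, the single-strand binding protein RPA, the enzymes that join Okazaki fragments, and ribonucleotide reductase. They were chosen by name, as genes of origin licensing and of the fork, and not by their values. All 49 were among the 16865 gene symbols of the table, and all 49 passed the filter on low values and belonged to the 13567 genes tested.

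Replication origins are licensed in the G1 phase of the cell cycle, when the origin recognition complex, with Cdc6 and Cdt1, loads rings of Mcm2 to Mcm7 onto DNA. Geminin, the product of Gmnn, binds Cdt1 and blocks loading once S phase has begun. The kinase of Cdc7 and Dbf4, together with cyclin-dependent kinases, then joins Cdc45 and the GINS complex to each ring to form the working helicase, behind which polymerase alpha-primase lays down primers and polymerases delta and epsilon extend them. The acetyltransferase KAT7 (HBO1) is found at origins, where it binds licensing factors. Genes of this machinery are known targets of E2F factors and are transcribed most in dividing cells.

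RNA had been sequenced from leukemic spleens of 10 C57BL/6 mice, 5 in each group. Every mouse had been irradiated at a sub-lethal dose and had received T cell acute lymphoblastic leukemia cells (T-ALL, a leukemia of immature T cells) carrying a conditional Sirt1 knockout allele. The control group had been given the corn oil vehicle and the Sirt1 deleted group 3 mg of tamoxifen per mouse in corn oil, to delete the gene. The recombinase and its promoter are not named in the labels. No group had tamoxifen without deletion, so the drug and the loss of Sirt1, a NAD-dependent deacetylase, cannot be told apart. The labels do not say which primary leukemia each mouse carried, and p-values therefore measure the spread between these 10 spleens. The host keeps its own cells, and the spleens hold them beside the leukemia.

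Totals of normalized counts ran from 33587587 to 34790203 per library, and the depth estimated from the steps between low values from 21133645 to 44505706 reads (38521000 ± 6355510 in control against 31584600 ± 8208840 in Sirt1 deleted libraries, SD, n = 5 each, exact permutation p = 0.183, two-sided). Sirt1 itself read 1324, 1348, 1174, 1192 and 1126 in control replicates 1 to 5 and 922, 824, 1071, 1061 and 710 in Sirt1 deleted replicates 1 to 5, with no overlap, a log2 difference of -0.44 ± 0.11 (SE, limma adjusted p = 0.0125; exact permutation p = 0.00794, two-sided, the smallest that 5 against 5 allows). After a correction for transcript length and GC content, described below, Sirt1 stood at -0.25 and was called (adjusted p = 0.0289, limma). Without the 3 libraries of steepest length slope, defined below, Sirt1 stood at -0.27 and was not called (adjusted p = 0.128, limma). The gene-level value does not show which exons were read. Long and short transcripts were not read in the same proportion in all libraries. The slope of a gene's log2 deviation on the log2 length of its transcript was 0.0981 ± 0.0615 in control and -0.0981 ± 0.0862 in Sirt1 deleted libraries (SD, n = 5 each, exact permutation p = 0.00794, two-sided). The steepest slopes were those of control replicates 1 and 2 and Sirt1 deleted replicate 5. Summed markers of other cells also differed in range: macrophage markers ran from 7343 to 11701 in control and from 3510 to 6909 in Sirt1 deleted libraries (6 of 10 genes lower), erythroid markers from 420774 to 534666 and from 205550 to 466610 (2 of 10 lower), neutrophil markers from 1656 to 4353 and from 2166 to 8822 (2 of 10 higher), and B cell markers from 251 to 338 and from 311 to 501 (3 of 9 tested higher). Of 3 natural killer cell markers tested none was called, and of 3 stromal and endothelial markers Pecam1 was lower. Ebf1 and Klrd1 were at 0 in at least 1 library. After the length and GC correction described below, 6 macrophage and 6 erythroid markers were lower, 2 B cell markers were higher and 0 neutrophil markers were called. The 14 T cell leukemia markers, among them Cd3g, Ptcra, Rag1 and Notch1, were all above 0 in every library and summed to between 277079 and 302763 in control and between 265296 and 304063 in Sirt1 deleted libraries, with 2 called higher and 2 lower. With the B cell markers as a term of the model, 0 members and 1 of all 13567 genes tested were called by limma. An unadjusted p under 0.05 was found for 6 members and for 2976 of all genes. The part of the other markers in the results below was not tested, and in bulk RNA fewer cells of a type and less RNA per cell cannot be told apart.

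The promoters of this machinery are shown first, because E2F words in them are what many of its members share and no value was used to find them. RefSeq (GRCm38.p6) gave windows of 300 bases around an annotated start for 41 of the 49 genes. An E2F word, meaning TTTGGCGC, TTTCCCGC, TTTGCCGC or TTTCGCGC on either strand, was found for 17 of the 41 genes (41.5%), against 2.60% of all 26994 genes with a window. The CCAAT box, searched as CCAAT on both strands, was found for 61.0% of the 41 and 41.0% of all, and both kinds of word together for 22.0% and 1.26%. The cell cycle homology region word TTTGAA, on both strands, was found for 17.1% and 20.2%. A match is a word in a window and not a measured site. The 150 bases before the RefSeq start are given below for Orc1, Mcm6, Pola1 and Topbp1. These are a subunit of each of the origin complex, the helicase and the primase polymerase and a scaffold of helicase activation. The bases run 5′ to 3′ on the gene's own strand, with E2F words and CCAAT boxes in capitals.
Orc1, chr4:108579304-108579453, plus strand: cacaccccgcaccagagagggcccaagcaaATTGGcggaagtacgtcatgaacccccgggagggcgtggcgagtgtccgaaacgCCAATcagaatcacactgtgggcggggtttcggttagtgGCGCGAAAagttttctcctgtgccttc
Mcm6, chr1:128359706-128359855, minus strand: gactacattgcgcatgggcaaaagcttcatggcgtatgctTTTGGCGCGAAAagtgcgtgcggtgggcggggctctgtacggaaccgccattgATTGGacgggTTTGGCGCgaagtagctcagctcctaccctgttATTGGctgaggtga
Pola1, chrX:93632156-93632305, minus strand: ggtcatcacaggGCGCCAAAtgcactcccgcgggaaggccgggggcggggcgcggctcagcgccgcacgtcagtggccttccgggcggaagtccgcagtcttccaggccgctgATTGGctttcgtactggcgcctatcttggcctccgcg
Topbp1, chr9:103305177-103305326, plus strand: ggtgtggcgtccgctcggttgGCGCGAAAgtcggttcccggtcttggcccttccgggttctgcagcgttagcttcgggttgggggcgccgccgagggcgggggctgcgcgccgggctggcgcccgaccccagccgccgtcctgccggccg
Counting the base before the RefSeq start as -1, the E2F word of Orc1 began at -27, between that start and 2 CCAAT boxes at -66 and -120. GENCODE M21, the source of the gene coordinates quoted below, begins Orc1 at 108579423 and Topbp1 at 103305215, inside the printed stretches. By those starts, part of each of these stretches lies within the gene. In Mcm6 there were 3 E2F words, of which the pair beginning at -110 and -106 overlapped on opposite strands, and CCAAT boxes at -57 and -14. Pola1 had an E2F word at -138 and a CCAAT box at -37, and Topbp1 had 1 E2F word at -129 and no CCAAT box in its window. The other genes with an E2F word were Cdc6, Cdt1, Gins3, Lig1, Mcm3, Mcm5, Mcm7, Mcm8, Orc3, Pold1, Pold3, Pole2 and Rfc3. The 17 genes with a word and the 24 without had, in the comparison that follows, median log2 differences of 0.01 and 0.03, with 2 higher and 2 lower against 3 higher and 2 lower by limma. Gins1, Gins2, Gins4, Gmnn, Mcm4, Pole, Prim2 and Rfc2 had no window and are in neither set. Among them Gins1, Gins4, Gmnn and Rfc2 were called higher, so these counts leave out a large part of the higher members. Their median control levels were 1901 and 1611 normalized counts per kilobase of transcript.

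Most replication genes differed little between Sirt1 deleted and control spleens. On the log2(value + 1) scale, 9 of the 49 were higher in Sirt1 deleted spleens at an adjusted p under 0.05, where 14.5% of all tested genes were higher, and 4 were lower, where 17.5% of all were lower (limma, adjusted over all genes tested). The 9 were Rpa3, Gins1, Gmnn, Cdt1, Gins4, Pold2, Rfc2, Pcna and Pold1, from 0.39 down to 0.16, and the 4 were Pola1, Topbp1, Rfc1 and Mcm9, from -0.40 to -0.24. No subunit of the origin recognition complex or of the Mcm2 to Mcm7 ring was called, nor were Cdc7, Dbf4, Fen1, Lig1, Rrm1 or Rrm2. The median log2 difference of the members was 0.04, with 30 above and 19 below 0, and that of all tested genes was 0.001.

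The members' differences were small in size. Their median absolute log2 difference was 0.12 and their median standard error 0.06, against 0.19 and 0.09 for all tested genes. For 48 of the 49 the 95% confidence interval of the difference lay within 1.5-fold either way, the exception being Pola1 (-0.65 to -0.16), and for 25 it lay within 1.2-fold. In 7 of the 49 (Orc1, Cdt1, Gmnn, Gins1, Pold2, Rfc2 and Rpa3) the groups did not overlap, and the same held for 16.5% of all tested genes. Between replicates the members' median coefficient of variation was 4.41% in control and 6.92% in Sirt1 deleted libraries, and that of all tested genes, many of them read at lower levels, was 8.18% and 11.9%.

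Of the 13 called genes, Cdt1, Gmnn, Gins1 and Rpa3 were called with each of the 10 libraries left out in turn. Topbp1 (-0.35 to -0.24) and Pold2 (0.16 to 0.20) were not called without control replicate 2. Pola1 (-0.47 to -0.31) and Rfc1 (-0.29 to -0.21) were not called without control replicate 1, control replicate 2 or Sirt1 deleted replicate 2, and Rfc2 (0.14 to 0.20) was in addition not called without control replicate 4. Gins4 (0.15 to 0.22), Mcm9 (-0.27 to -0.18), Pcna (0.13 to 0.21) and Pold1 (0.14 to 0.21) lay nearest the threshold and were called in 4, 3, 2 and 1 of the 10 omissions. In number, 4 members were higher and 0 lower without control replicate 2, where 2200 of all 13567 genes tested were called in either direction. The numbers were 5 and 1 without control replicate 1 (2335 of all genes) and also without Sirt1 deleted replicate 2 (2711). Without control replicate 4 they were 5 and 3 (3146). With all libraries 4344 of all genes were called, so calls were lost over the whole table.

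**Figure D1:**
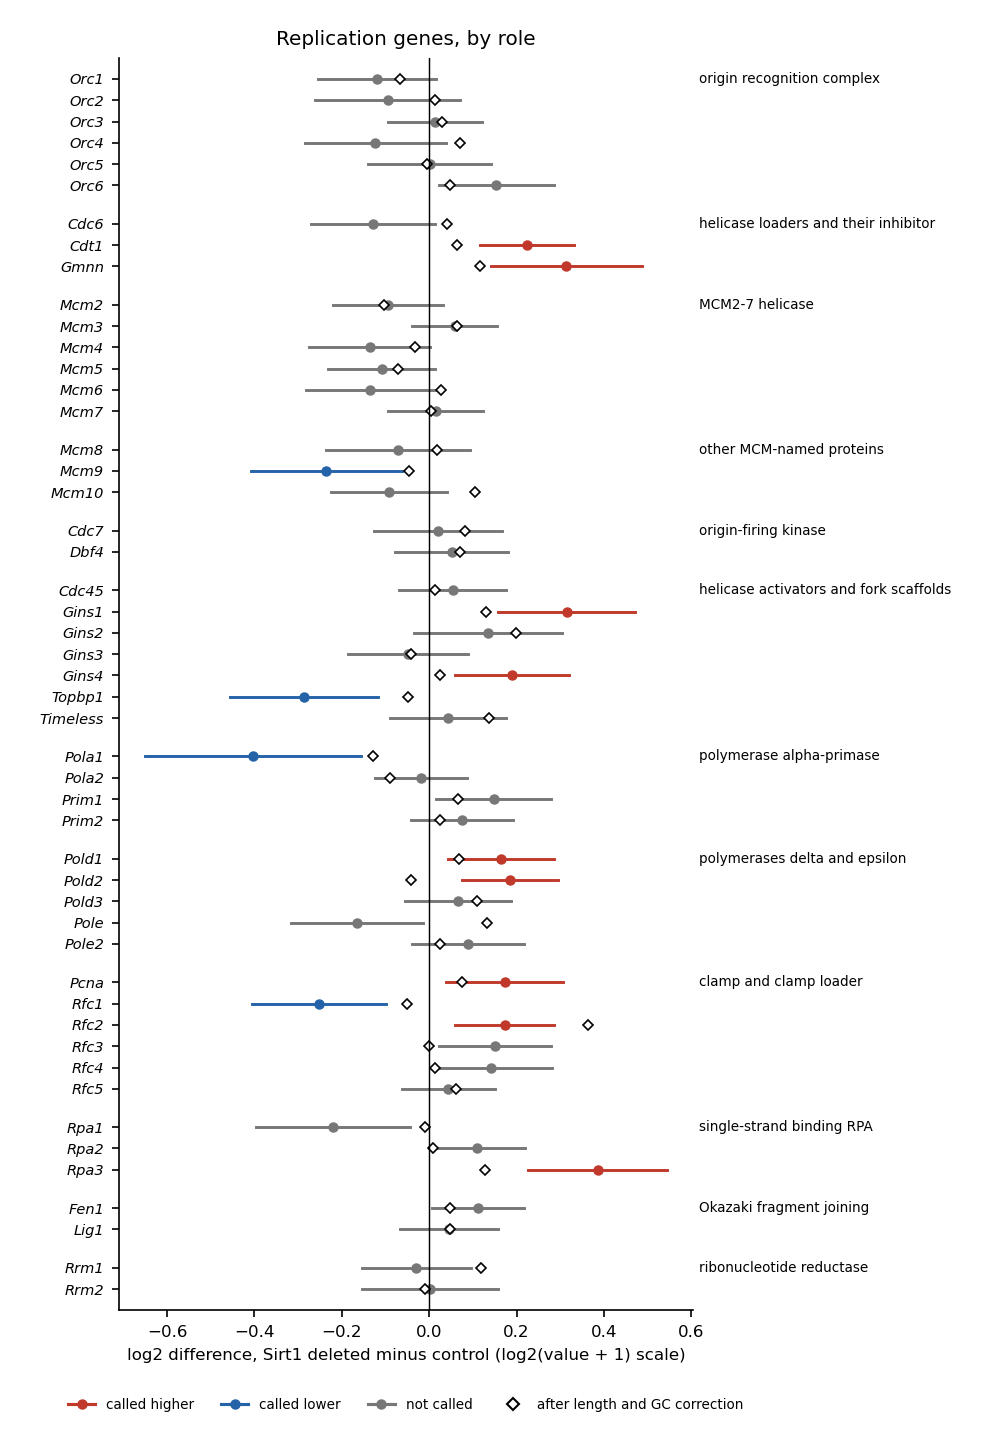
Log2 difference (x axis, log2(value + 1) scale, Sirt1 deleted minus control) of the 49 genes by role, with 95% confidence intervals from limma (n = 5 libraries per group). Red marks the 9 genes called higher, blue the 4 called lower, grey the rest, and open diamonds the difference after correction for transcript length and GC content, which lay nearer 0 for 12 of the 13 called genes.

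The direction of a member's difference went with the length of its transcript. All 13 members whose longest protein-coding transcript (GENCODE M21) was under 2000 bases were above 0, with 6 called higher, none lower and a median of 0.15. Of the 24 members from 2000 to 4000 bases, 2 were higher and none lower, with a median of 0.01. Of the 12 over 4000 bases, 10 were below 0, and 1 was higher and 4 lower, with a median of -0.15. The same pattern held over all genes, of which 40.1% were higher in the shortest class and 43.2% lower in the longest. As a description over genes, which share the same 10 libraries, Spearman's rho between length and log2 difference was -0.77 for the 49 members and -0.61 for all 12397 tested genes with a protein-coding length.

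To see what remained, each library's trend with transcript length and GC content, fitted over all genes, was subtracted. Rfc2 alone was then called among the members (1 of 49 higher and none lower), beside 8.48% of all genes higher and 6.12% lower. The medians of the 3 length classes became 0.03, 0.02 and 0.03, rho became -0.06, and 38 of the 49 members kept their side of 0. The subtraction removes the length trend over all genes, whose rho became -0.01. Class medians and a rho near 0 therefore follow largely from the procedure. The interval of the corrected difference lay within 1.5-fold for all 49 members and within 1.2-fold for 47. The correction depended on the transcript length used over all genes. With the median length over a gene's protein-coding transcripts in place of the longest, 11 members were higher and 1 lower. Of all 12397 genes, 2999 were then called in either direction. The higher members were Rfc2, Rpa3, Gins1, Gins2, Gmnn, Rrm1, Timeless, Pcna, Prim1, Mcm3 and Gins4, from 0.42 to 0.14, and Topbp1 was lower at -0.34. Of the higher ones, all but Gmnn, Timeless and Prim1 have 1 annotated protein-coding transcript. Their own length was therefore the same in both corrections, and what changed was the trend fitted over all genes. Gins1, at 1087 bases in both, stood at 0.13 with the longest and 0.28 with the median. For 6 members, Topbp1 among them, that median was under 0.3 of the longest, and rho with the longest length was still -0.43 for the members and -0.30 for all genes. Which transcripts the cells made was not tested. With the 3 libraries of steepest slope left out, 0 members and 3 of all 13567 genes tested were called by limma. An unadjusted p under 0.05 was then found for 11 members and 3159 of all genes. With the slope as a term of the model, 0 members and 0 of all genes were called, and 1 and 577 had an unadjusted p under 0.05. The slopes ran from 0.0035 to 0.16 in control and from -0.24 to -0.025 in Sirt1 deleted libraries, without overlap. That model could therefore hardly tell the group from the slope, and its lack of calls decides nothing.

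**Figure D2:**
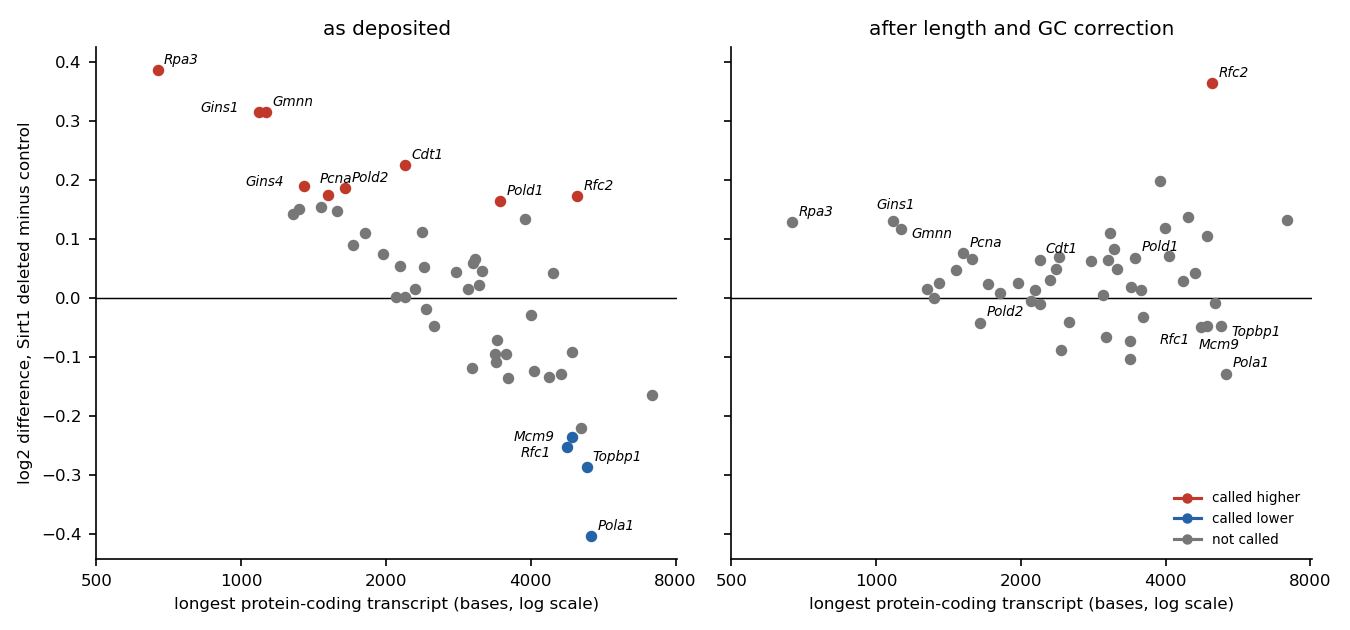
Log2 difference (y axis, Sirt1 deleted minus control) of each of the 49 genes against its longest protein-coding transcript (x axis, bases, log scale), as deposited on the left and after correction for length and GC content on the right, coloured by the limma call in that panel. The deposited differences fall from 0.39 for Rpa3 to -0.40 for Pola1, and in the right panel Rfc2 is the gene that stays called.

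The origin recognition complex, which marks origins through the cell cycle, was not called in any of its 6 subunits. Orc6, the smallest subunit, read 2411, 2537, 2387, 2504 and 2485 in control replicates 1 to 5 and 2495, 2591, 3063, 2683 and 2917 in Sirt1 deleted replicates 1 to 5. Sirt1 deleted replicates 2 to 5 lay above every control and replicate 1 inside their range, and the log2 difference was 0.15 ± 0.06 (SE), adjusted p = 0.0674 by limma. Orc1, an ATPase subunit, read 1251, 1240, 1214, 1254 and 1222 in control replicates 1 to 5 and 1207, 1110, 1199, 1194 and 994 in Sirt1 deleted replicates 1 to 5. The groups did not overlap, though the highest Sirt1 deleted value came close to the lowest control, and the difference was -0.12 ± 0.06 (SE), adjusted p = 0.155 by limma. Orc2, Orc3, Orc4 and Orc5 stood at -0.09, 0.01, -0.12 and 0.0014, with overlapping groups. After the correction the 6 subunits lay between -0.07 and 0.07.

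Of the loaders, Cdt1 and its inhibitor Gmnn were both higher, and Cdc6 was not called. Cdt1 read 5157, 4693, 4426, 4847 and 4927 in control replicates 1 to 5 and 5631, 5542, 5593, 5818 and 5483 in Sirt1 deleted replicates 1 to 5. Every Sirt1 deleted library was above every control, and Cdt1 rose by 0.22 ± 0.05 (SE) on the log2 scale, from 4810 ± 273 to 5613 ± 127 (SD, n = 5 each, adjusted p = 0.00981, limma). Gmnn (chr13:24751845-24761923, GRCm38) read 1977, 2107, 2106, 2187 and 2125 in control replicates 1 to 5 and 2284, 2467, 2893, 2397 and 3099 in Sirt1 deleted replicates 1 to 5. Here too the groups did not overlap, with replicates 3 and 5 highest, and the rise was 0.31 ± 0.08 (SE, adjusted p = 0.0141, limma). Cdc6, the ATPase that recruits the ring with Cdt1, stood at -0.13, with 2661 to 3102 in control and 2421 to 2814 in Sirt1 deleted libraries. After the correction Cdt1, Gmnn and Cdc6 stood at 0.06, 0.12 and 0.04, none called. The log2 ratio of Cdt1 to Gmnn within a library, which does not depend on scaling between libraries, was 1.19 ± 0.117 in control and 1.10 ± 0.210 in Sirt1 deleted libraries (SD, n = 5 each). That difference, -0.09, was not larger than the spread (exact permutation p = 0.437, two-sided; 0.833 after adjustment over the 3 ratios tested). With the corrected values it was -0.05 (exact permutation p = 0.524, two-sided).

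The 6 subunits of the replicative helicase moved little and none was called. Mcm4 had the smallest p of them and read 12337, 12582, 11183, 12036 and 10495 in control replicates 1 to 5 and 10980, 10253, 11322, 11142 and 9628 in Sirt1 deleted replicates 1 to 5. The groups overlapped, with control replicate 5 below 3 of the 5 Sirt1 deleted libraries, and the difference was -0.14 ± 0.06 (SE), adjusted p = 0.118 by limma. Mcm6 read 26039, 25300, 22875, 24558 and 21948 in control replicates 1 to 5 and 23026, 20824, 23745, 22932 and 19486 in Sirt1 deleted replicates 1 to 5. Sirt1 deleted replicate 5 was lowest and control replicates 1 and 2 were highest, with the others mixed, and the difference was -0.13 ± 0.07 (SE), adjusted p = 0.142 by limma. Mcm2, Mcm3, Mcm5 and Mcm7 stood at -0.09, 0.06, -0.11 and 0.02. Summed over the ring, the control libraries held between 98482 and 112177 normalized counts and the Sirt1 deleted ones between 97883 and 105819. The corrected differences ran from -0.10 (Mcm2) to 0.06 (Mcm3).

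Mcm9, which with Mcm8 forms a helicase of recombination repair and not of licensing, was lower. It read 1063, 1115, 1180, 1003 and 979 in control replicates 1 to 5 and 882, 935, 957, 999.6 and 771 in Sirt1 deleted replicates 1 to 5. Sirt1 deleted replicate 4 lay within the control range and the other 4 below it, and Mcm9 fell by 0.24 on the log2 scale (SE 0.08, adjusted p = 0.0393, limma). Mcm10, an unrelated protein that joins the helicase when it starts, read 3648, 3785, 3428, 3576 and 3038 in control replicates 1 to 5 and 3377, 3089, 3287, 3397 and 3214 in Sirt1 deleted replicates 1 to 5. Control replicate 5 was the lowest of the 10, and the difference of -0.09 ± 0.06 (SE) was not called (adjusted p = 0.266, limma). Mcm8 stood at -0.07. With the correction, Mcm8, Mcm9 and Mcm10 stood at 0.02, -0.05 and 0.11, and none was called.

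The origin-firing kinase was not called in either subunit. Cdc7, the catalytic subunit, read 1819, 1979, 1560, 1795 and 1585 in control replicates 1 to 5 and 1751, 1752, 1714, 1776 and 1840 in Sirt1 deleted replicates 1 to 5. The Sirt1 deleted values lay inside the control range, and the difference was 0.02 ± 0.07 (SE, adjusted p = 0.833, limma). Dbf4, its activating partner, read 3104, 3117, 3048, 3223 and 3291 in control replicates 1 to 5 and 2930, 3167, 3675, 3337 and 3285 in Sirt1 deleted replicates 1 to 5. Sirt1 deleted libraries held both the lowest and the highest value, and the difference was 0.05 ± 0.06 (SE, adjusted p = 0.526, limma). The log2 ratio of Dbf4 to Cdc7 was 0.858 ± 0.157 in control and 0.888 ± 0.133 in Sirt1 deleted libraries (SD, n = 5 each), a difference of 0.03 (exact permutation p = 0.722, two-sided; 0.833 adjusted over the 3 ratios). With the corrected values the difference was -0.01 (exact permutation p = 0.849, two-sided).

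Among the proteins that turn a loaded ring into a moving helicase, the GINS complex had 2 of its 4 subunits called, both higher. Gins1 (chr2:150905400-150931280) read 1118, 1164, 1204, 1206 and 1233 in control replicates 1 to 5 and 1318, 1396, 1545, 1414 and 1730 in Sirt1 deleted replicates 1 to 5. Each Sirt1 deleted library was above each control, and Gins1 rose by 0.32 ± 0.07 (SE) on the log2 scale (adjusted p = 0.0107, limma). Gins4 rose by 0.19 ± 0.06 (SE), with values of 1601 to 1798 in control and 1782 to 2123 in Sirt1 deleted libraries, of which 2 lay inside the control range (adjusted p = 0.0309, limma). Gins2 and Gins3 were not called, at 0.13 and -0.05. Gins1 and Gins4 have transcripts of 1087 and 1349 bases and Gins2 and Gins3 of 3900 and 2519, and the corrected differences of the 4, in that order, were 0.13, 0.02, 0.20 and -0.04, none called.

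Topbp1 (chr9:103305215-103350428), a scaffold that brings the kinase-marked activators to the helicase and also activates the checkpoint kinase ATR, was lower. It read 11958, 12641, 11752, 11512 and 9596 in control replicates 1 to 5 and 9986, 9030, 9407, 10315 and 8303 in Sirt1 deleted replicates 1 to 5. Control replicate 5 lay among the Sirt1 deleted values and the other 4 controls above all of them. Topbp1 fell by 0.29 on the log2 scale (SE 0.08, adjusted p = 0.0178, limma) and stood at -0.05 after the correction. Cdc45, the helicase cofactor, and Timeless, the fork protection subunit, stood at 0.05 and 0.04, not called.

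Polymerase alpha-primase, which starts every new strand, had its catalytic subunit lower and its other subunits uncalled. Pola1 (chrX:93304767-93632155) read 5848, 6152, 5144, 5053 and 4385 in control replicates 1 to 5 and 4299, 3692, 4576, 4520 and 3085 in Sirt1 deleted replicates 1 to 5. Sirt1 deleted replicate 5 was lowest and control replicates 1 and 2 highest, while control replicate 5 fell among the Sirt1 deleted libraries. Pola1 fell by 0.40 on the log2 scale (SE 0.11, adjusted p = 0.0205, limma), the widest difference of any member, and stood at -0.13 after the correction (adjusted p = 0.147, limma). Prim1, the subunit that makes the RNA primer, read 3358, 3603, 3159, 3465 and 3398 in control replicates 1 to 5 and 3409, 3732, 4127, 3595 and 3972 in Sirt1 deleted replicates 1 to 5. The groups overlapped and the difference was 0.15 ± 0.06 (SE, adjusted p = 0.0772, limma). Pola2 and Prim2, the regulatory subunits, stood at -0.02 and 0.07.

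Polymerase delta, the main lagging strand polymerase, had 2 subunits higher. Pold2, an accessory subunit, read 3343, 3092, 3177, 3328 and 3023 in control replicates 1 to 5 and 3648, 3484, 3495, 3649 and 3883 in Sirt1 deleted replicates 1 to 5. The groups did not overlap, and Pold2 rose by 0.19 ± 0.05 (SE, adjusted p = 0.018, limma). Pold1, the catalytic subunit, read 7409, 7147, 6807, 6981 and 6843 in control replicates 1 to 5 and 8117, 7977, 6956, 8067 and 8370 in Sirt1 deleted replicates 1 to 5. Sirt1 deleted replicate 3 lay within the control range and the other 4 above it, and Pold1 rose by 0.16 ± 0.06 (SE, adjusted p = 0.0404, limma). After the correction Pold2 stood at -0.04 and Pold1 at 0.07, neither called. Pold3 stood at 0.07. Of polymerase epsilon, which copies the leading strand, the catalytic subunit Pole, with the longest transcript of the 49 (7163 bases), stood at -0.17 and Pole2 at 0.09, and neither was called (adjusted p = 0.0837 and 0.256, limma).

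**Figure D3:**
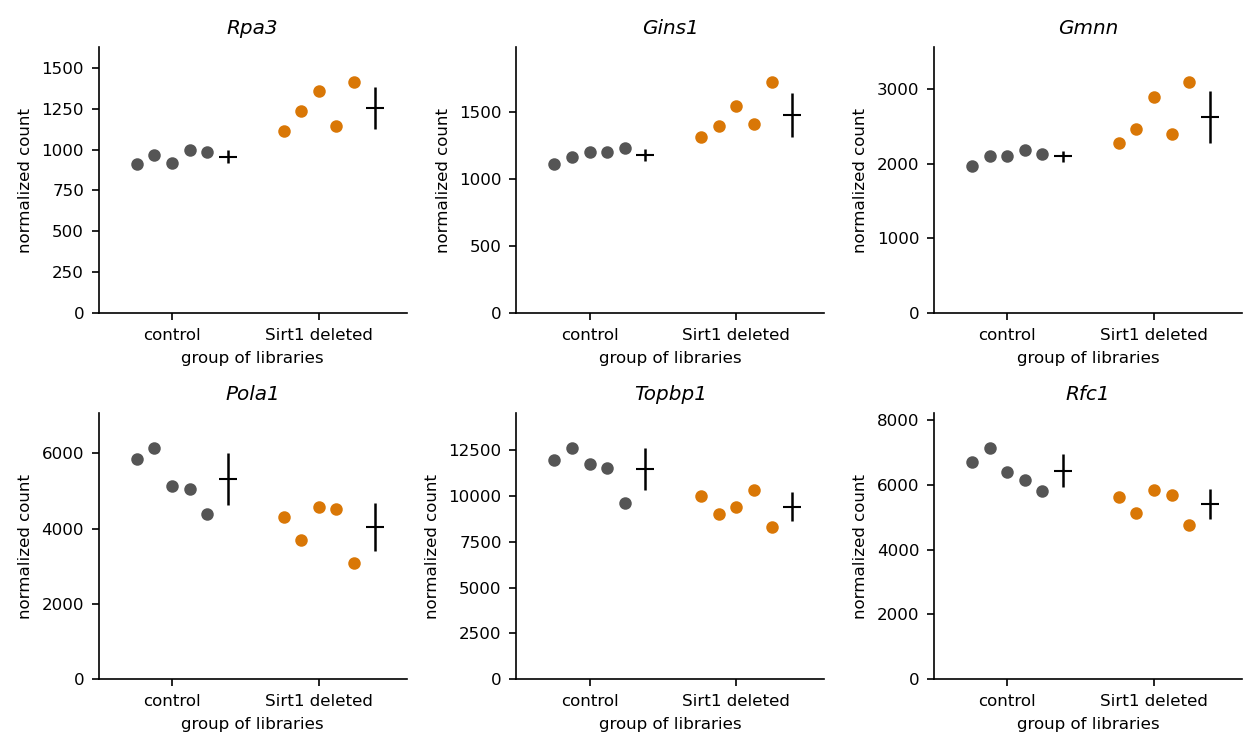
Normalized count (y axis, from 0) in each library for the 3 largest called rises (top) and the 3 largest called falls (bottom), grey for control and orange for Sirt1 deleted, replicates 1 to 5 from left to right in each group, with the mean and SD as black marks (n = 5). The groups are apart for Rpa3, Gins1 and Gmnn and overlap for Pola1, Topbp1 and Rfc1.

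The clamp Pcna, a ring that holds polymerases on DNA, and its loader gave differences in both directions. Pcna rose by 0.17 ± 0.06 (SE), with values of 20827 to 22761 in control and 22310 to 27783 in Sirt1 deleted libraries, replicate 1 lying inside the control range (adjusted p = 0.0477, limma). Rfc1 (chr5:65261850-65335670), the large subunit that opens the ring, read 6703, 7146, 6402, 6153 and 5798 in control replicates 1 to 5 and 5634, 5121, 5843, 5681 and 4759 in Sirt1 deleted replicates 1 to 5. Sirt1 deleted replicate 3 overlapped control replicate 5 and the rest lay below, and Rfc1 fell by 0.25 on the log2 scale (SE 0.07, adjusted p = 0.0193, limma). Rfc2 (chr5:134581366-134601805), a small subunit, read 3301, 3476, 3512, 3401 and 3279 in control replicates 1 to 5 and 3586, 3855, 3699, 3806 and 4200 in Sirt1 deleted replicates 1 to 5. All 5 Sirt1 deleted libraries were above all controls, and Rfc2 rose by 0.17 ± 0.05 (SE, adjusted p = 0.026, limma). Rfc3, Rfc4 and Rfc5 stood at 0.15, 0.14 and 0.04, not called.

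Of the 13 called genes, Rfc2 was the 1 whose difference grew with the correction, to 0.36 (SE 0.07, adjusted p = 0.00791, limma), and it stayed called when each library was left out in turn (0.30 to 0.40). The annotation gave it 1 protein-coding transcript, of 4995 bases, so it was corrected as a long transcript, while its deposited difference lay beside those of Rfc3 and Rfc4, whose transcripts have 1317 and 1279 bases (0.15 and 0.14). Whether these cells use a shorter Rfc2 transcript was not tested. Without Sirt1 deleted replicate 1 the number of members called after the correction was 3, and it was 1 with each other library left out.

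RPA, the trimer that coats single strands at the fork, had its smallest subunit higher and the other 2 uncalled. Rpa3 (chr6:8255936-8259173) read 912, 966, 915, 999.9 and 987 in control replicates 1 to 5 and 1116, 1234, 1360, 1145 and 1414 in Sirt1 deleted replicates 1 to 5. The groups were apart, and Rpa3 rose by 0.39 ± 0.07 (SE, adjusted p = 0.00797, limma), the largest rise of any member in the gene with the shortest transcript (670 bases). Rpa1, the large DNA-binding subunit, with a transcript of 5077 bases, read 9428, 9351, 9265, 9298 and 8167 in control replicates 1 to 5 and 7972, 7409, 8757, 8705 and 6406 in Sirt1 deleted replicates 1 to 5. Control replicate 5 lay below 2 of the Sirt1 deleted libraries, and the difference of -0.22 ± 0.08 (SE) was not called (adjusted p = 0.0545, limma). Rpa2 stood between them at 0.11. After the correction Rpa1, Rpa2 and Rpa3 stood at -0.01, 0.01 and 0.13, none called.

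Fen1 and Lig1, which trim and seal Okazaki fragments, were not called. Fen1 read 5508, 5812, 5433, 5284 and 5364 in control replicates 1 to 5 and 5543, 5741, 6112, 6122 and 6080 in Sirt1 deleted replicates 1 to 5. Sirt1 deleted replicates 3, 4 and 5 were above every control, replicates 1 and 2 were within the control range, and the difference was 0.11 ± 0.05 (SE, adjusted p = 0.0955, limma). Lig1 read 12310, 12276, 11703, 11478 and 11070 in control replicates 1 to 5 and 11230, 11930, 12332, 12445 and 12789 in Sirt1 deleted replicates 1 to 5, with broadly overlapping groups and a difference of 0.05 ± 0.05 (SE, adjusted p = 0.518, limma).

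Ribonucleotide reductase, which makes deoxynucleotides, was not called in either subunit. Rrm1, the large subunit, read 22116, 22348, 21960, 21591 and 20619 in control replicates 1 to 5 and 20274, 19932, 23702, 22421 and 20316 in Sirt1 deleted replicates 1 to 5. The Sirt1 deleted libraries reached both below and above the controls, with a difference of -0.03 ± 0.06 (SE, adjusted p = 0.718, limma). Rrm2, the small subunit that is made in S phase, read 13997, 13431, 11358, 13647 and 12437 in control replicates 1 to 5 and 12269, 12198, 14542, 13871 and 12076 in Sirt1 deleted replicates 1 to 5. Control replicate 3 was the lowest of the 10, and the difference was 0.0017 ± 0.07 (SE, adjusted p = 0.988, limma). The log2 ratio of Rrm2 to Rrm1 was -0.747 ± 0.119 in control and -0.716 ± 0.0223 in Sirt1 deleted libraries (SD, n = 5 each). The difference in the mean, 0.03, was not larger than the spread (exact permutation p = 0.833, two-sided; 0.833 adjusted over the 3 ratios), and the difference in SD was not tested. With values corrected for length and GC content the difference in the mean was -0.13 (exact permutation p = 0.143, two-sided; 0.429 adjusted). The transcripts of Rrm1 and Rrm2 have 3997 and 2193 bases.

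Between genes, levels are compared per kilobase of the longest transcript, as means of the 5 control libraries with their SD. Pcna was highest at 14396 ± 468 normalized counts per kilobase, above Mcm7 (6775 ± 377), Rrm2 (5916 ± 489), Mcm6 (5544 ± 390), Mcm2 (5460 ± 301), Rrm1 (5436 ± 170) and Mcm3 (5430 ± 140), and of these Rrm2, Mcm6, Mcm2, Rrm1 and Mcm3 lay within 1 SD of their neighbours. Mcm5 followed at 4931 ± 277 and Mcm4 at 3267 ± 242, so the 6 subunits of a ring that holds 1 of each spanned from 3267 ± 242 to 6775 ± 377. The origin subunits spread further, from 342 ± 25.8 for Orc4 and 410 ± 5.77 for Orc1 to 1681 ± 43.2 for Orc6, and Cdc7 (559 ± 55.9) was below Dbf4 (1314 ± 40.9). Lowest were Mcm8 at 236 ± 21.9 and Mcm9 at 219 ± 16.8, 65.8 times below Pcna. These values carry the annotated length, which for Gins2 (358 ± 8.06) and Rfc2 (679 ± 20.7) rests on 1 annotated transcript of 3900 and 4995 bases.

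**Figure D4:**
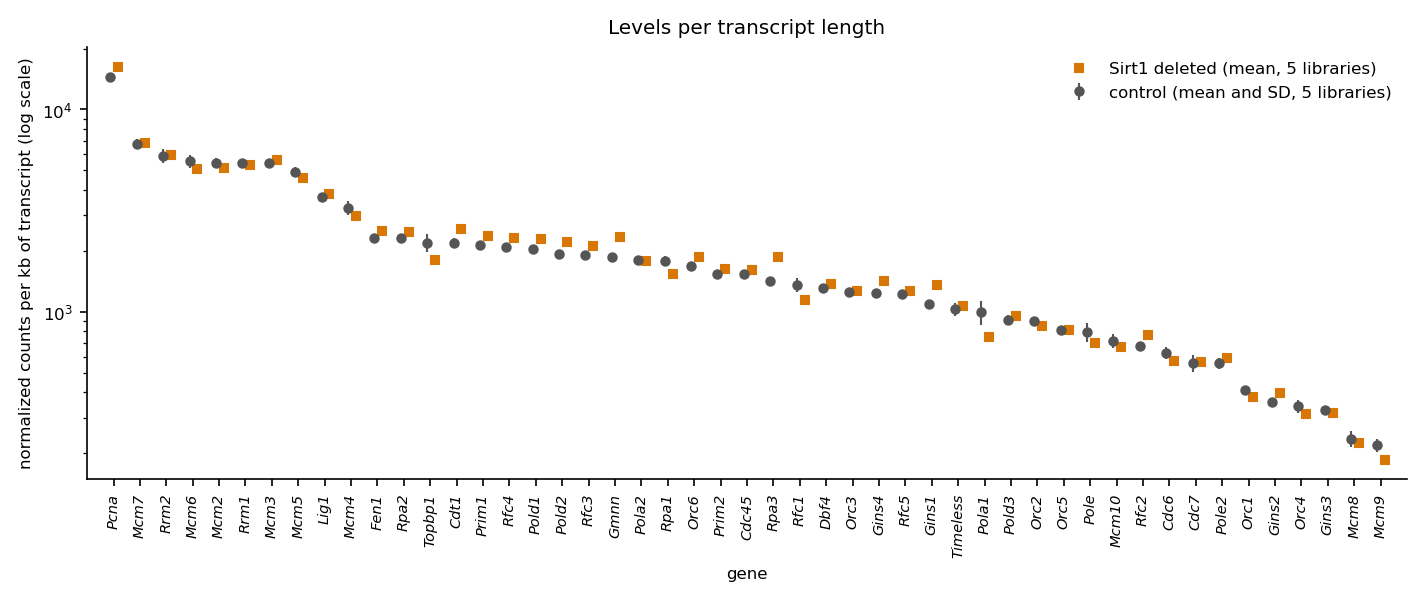
Normalized counts per kilobase of longest protein-coding transcript (y axis, log scale) for the 49 genes (x axis, in order of the control mean), with grey points and bars for the control mean and SD and orange squares for the Sirt1 deleted mean (n = 5 libraries each). Pcna lies highest at 14396 and Mcm9 lowest at 219 in control.

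The members took 0.849% to 0.932% of all normalized counts in each library. Of the 3 length classes, the short members parted between the groups and the long members overlapped. The median log2 deviation of the 13 members under 2000 bases was between -0.12 and -0.07 in the controls and between -0.04 and 0.19 in the Sirt1 deleted libraries, without overlap, whereas that of the 12 over 4000 bases was between -0.07 and 0.17 and between -0.24 and 0.02. Control replicate 5 held the lowest of the 5 control values for 24 of the 49 members, against at most 18 for any other control, and for 35 after the correction, and its median member deviation was -0.08 as deposited and -0.09 after correction. Its summed mitotic markers, at 134799, were the highest of the controls (122996 to 134575 in the others). Without control replicate 5, 7 members were called higher and 7 lower, with Mcm4, Pole and Rpa1 added to the lower ones and Pold1 and Pcna no longer called. Of all 13567 genes tested, 4712 were then called in either direction, against 4344 with all libraries.

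**Figure D5:**
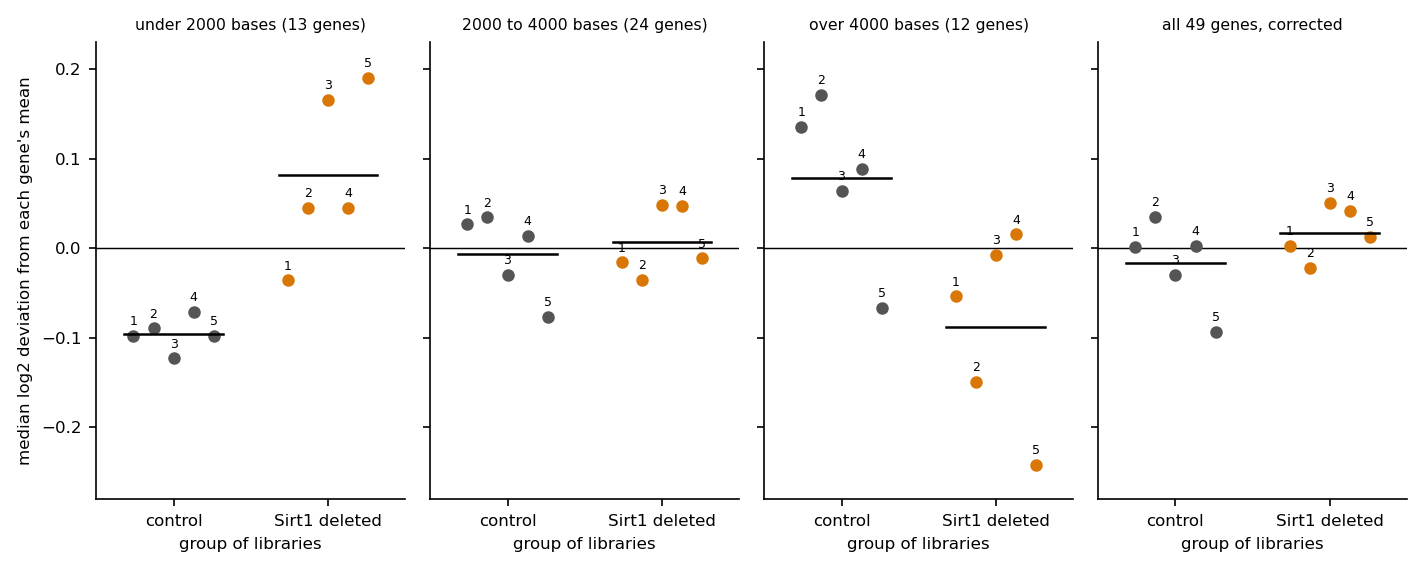
Median log2 deviation from each gene's mean over the 10 libraries (y axis) for members under 2000, from 2000 to 4000 and over 4000 bases and for all 49 after correction for length and GC content, 1 point per library with its replicate number, black bars for group means. Short members lie higher in every Sirt1 deleted library than in any control, long members overlap between the groups, and control replicate 5 lies lowest after correction at -0.09.

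Other genes of the same pathways were read from lists made with earlier results of these data known, beside the 14.5% of all tested genes that were higher and the 17.5% that were lower. Of 24 further fork and licensing genes, 8 were higher and 2 lower (limma), with a median of 0.11. All the higher ones but Rnaseh2a had a transcript under 2000 bases, and of all tested genes of that length 40.1% were higher. Both lower ones had a transcript over 4000 bases, where 43.2% of all were lower. All 3 subunits of ribonuclease H2, which removes ribonucleotides from DNA, were among the higher ones, led by Rnaseh2c at 0.60 ± 0.14 (SE) and Rnaseh2a at 0.32 ± 0.11 (SE), followed by the clamp loader subunit Dscc1 at 0.32 ± 0.09 (SE). The lower ones were Atad5, a clamp unloader, at -0.48 ± 0.11 (SE) and Ticrr (treslin), a Topbp1 partner in helicase activation, at -0.25 ± 0.09 (SE). After the correction 2 of the 24 were called, Pole4 at 0.20 and Tipin at 0.16, both higher, the names chosen after their values were seen. Corrected with the median transcript, Pole4 stood at 0.23, called, and Tipin at 0.06, not called (adjusted p = 0.0115 and 0.487, limma). Of 8 genes of chromatin assembly and maintenance methylation, the histone chaperones Asf1a (0.31 ± 0.08, SE) and Chaf1b (0.22 ± 0.07, SE) were higher and none lower, and Asf1a stayed called after the correction.

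Of 9 nucleotide supply enzymes, 4 were higher and 1 lower. Dut, which clears dUTP, rose by 0.34 ± 0.07 (SE), Dguok, a mitochondrial deoxynucleoside kinase, by 0.34 ± 0.08 (SE) and Tyms, which makes thymidylate, by 0.20 ± 0.06 (SE), and Dck, a salvage kinase, fell by 0.30 (SE 0.10) on the log2 scale (adjusted p = 0.00856, 0.0102, 0.0261 and 0.0309, limma). After the correction Dut stood at 0.27, Tyms at 0.26 and Dck at -0.23, each still called, and Dguok at 0.11, not called. Corrected with the median transcript, Dut (0.29) and Dguok (0.25) were called (adjusted p = 0.00994 and 0.021, limma). Tyms (0.06) and Dck (-0.13) were then not called (adjusted p = 0.383 and 0.112, limma).

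Of 13 genes of the E2F, DP and RB families, 6 were lower and none higher. Their median transcript had 4656 bases, and of all tested genes over 4000 bases 43.2% were lower. E2f1, an activating E2F, stood at 0.12, not called, E2f2 fell by 0.31 and E2f7, a repressor, by 0.43 on the log2 scale (adjusted p = 0.0436 and 0.0298, limma). E2f3, E2f4, E2f5, E2f6 and E2f8 stood at -0.14, -0.08, 0.09, -0.13 and 0.01, not called. Rb1, the retinoblastoma protein that holds E2F factors, stood lower at -0.47 ± 0.15 (SE), and the dimer partner Tfdp2 at -0.39 ± 0.09 (SE). After the correction 2 of the 13, E2f4 (-0.22) and Tfdp1 (-0.18), were lower.

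Of 15 S-phase cyclins, kinases and licensing regulators, 6 were lower and none higher. Their transcripts ran from 1940 to 8102 bases with a median of 3419, and of all tested genes 8.70% were lower from 2000 to 4000 bases and 43.2% above that. Ccne2, an S-phase cyclin, fell by 0.76 (SE 0.23), and Cul4b and Cul4a, scaffolds of the ubiquitin ligase that removes Cdt1 in S phase, by 0.37 (SE 0.12) and 0.32 (SE 0.10) on the log2 scale (adjusted p = 0.0244, 0.032 and 0.0295, limma). After the correction Ccne2 alone was called, at -0.65. Kat7 read 4696, 4723, 4797, 4306 and 4184 in control replicates 1 to 5 and 3960, 3906, 4253, 4468 and 3370 in Sirt1 deleted replicates 1 to 5. The groups overlapped between control replicates 4 and 5 and Sirt1 deleted replicates 3 and 4, and the difference of -0.19 ± 0.07 (SE) was not called (adjusted p = 0.0635, limma). Of the 10 genes of the KAT7 complexes, with a median transcript of 4846 bases, 4 were lower and none higher, led by the scaffold subunits Jade1 (-0.55 ± 0.15, SE), Jade3 (-0.45 ± 0.14, SE) and Jade2 (-0.41 ± 0.12, SE). After the correction none of the 10 was lower, and Meaf6 (0.25) and Brpf3 (0.18), named after their values were seen, were higher. Corrected with the median transcript, Meaf6 (0.0048) and Brpf3 (0.0019) were not called (adjusted p = 0.945 and 0.979, limma). Jade1 was then lower at -0.47 (adjusted p = 0.027, limma).

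Mitotic genes, read as a check on proliferation, were higher in 4 of 13 and lower in none, with a median of 0.07. Birc5 (survivin), Ccnb2, a mitotic cyclin, and Cdk1, the mitotic kinase, stood at 0.25 ± 0.07 (SE), 0.25 ± 0.09 (SE) and 0.23 ± 0.06 (SE), and Birc5 and Cdk1 were called after the correction as well, at 0.32 and 0.39. The summed level of the 13 ran from 122996 to 134799 in control and from 119387 to 138425 in Sirt1 deleted libraries, so the ranges overlapped.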

How the data were processed

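Strand-specific RNA libraries of 10 leukemic mouse spleens were compared, 5 control and 5 Sirt1 deleted. The submitters' processing notes name kallisto 0.44.0, DESeq and build mm10, without a version of DESeq. What was deposited is a signal, normalized counts per gene that are not whole numbers, and 0 of its columns were left unused. The annotation and the step from transcripts to genes are not given in the sources used here. Depth was estimated by dividing each total by the step between its low values, searched from 0.6 to 2.5. The lower end was raised after 1 library had given a much smaller step than the others. From 84.8% to 91.3% of the low values lay within 0.1 of a whole multiple, so whole reads were not recovered for the rest and no count model was used.

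Genes with 10 or more in at least 5 libraries were tested by limma-trend (limma 3.58.1, R 4.3.3) on log2(value + 1), two-sided, with Benjamini-Hochberg adjustment over all genes tested and calls at 0.05. Fold changes are on that scale. Single values used exact permutation of the group labels. The correction fitted a spline with 5 degrees of freedom on length and GC content in each library. Lengths came from GENCODE M21 for 12397 tested genes (91.4%), and promoters from RefSeq. The script was tested on simulated data. Other steps ran in Python 3.11.15 with scipy 1.17.1, pandas 2.3.3, numpy 2.4.6 and matplotlib 3.10.9. Every library is given for the 2 genes of smallest p in each of 12 role groups and the 3 largest called rises and falls. From other lists Sirt1, Kat7, E2f1 to E2f8 and up to 3 called genes a direction are named. The genes and lists were chosen with earlier results of these data known. Alternatives were other pseudocounts, filters, scalings, corrections, covariates and left-out libraries.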

Additional observations from a re-analysis of the deposited data

Results flagged for a closer look

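In 6 of the 100 groups of 5 libraries looked at (the 49 genes and Sirt1, in 2 groups), 1 library lay far from the other 4 by Dixon's 95% criterion, and chance flags about 1 in 20 groups. Control replicate 5 gave 3 of the 6. Mcm3 was 15715 there against 16532 to 16754 in the other controls, Cdc45 was 3057 against 3319 to 3389, and Rpa1 was 8167 against 9265 to 9428, so all were low. In Sirt1 deleted libraries, Gins2 was 1901 in replicate 5 against 1387 to 1511 in the others. Pold1 was 6956 in Sirt1 deleted replicate 3 against 7977 to 8370, which places that library within the control range. Pole was 4785 in Sirt1 deleted replicate 2 against 5078 to 5126.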

How the results depend on the processing

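Pseudocounts of 0.5 and 5, equal totals, no filter and a minimum of 50 kept the counts of replication genes called between 7 and 9 higher and 4 and 5 lower. Quantile normalization gave 15 higher and 4 lower, with 4437 of all 13567 genes tested called in either direction. The length and GC correction gave 1 higher and 0 lower (1810 genes called in all), and with the median transcript 11 were higher and 1 lower (2999 genes called in all). With the length slope of the library in the model, 0 and 0 were called, 0 of all genes, 577 at an unadjusted p under 0.05 (1 member). That slope did not overlap between the groups, so this fit could hardly call a group difference. With B cell markers as a covariate the counts were 0 and 0, 1 of all, 2976 unadjusted (6 members). Without the 3 libraries of steepest length slope (control replicates 1 and 2 and Sirt1 deleted replicate 5) they were 0 and 0, 3 of all, 3159 unadjusted (11 members). Sirt1 then stood at -0.00057, -0.27 and -0.27 on the log2 scale, called under none of the 3 (limma). Under the length and GC correction it stood at -0.25, and with the median transcript at -0.20, both called (adjusted p = 0.0289 and 0.0325, limma).

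Leaving out 1 library gave 4 to 12 higher and 0 to 7 lower, and 2200 to 4712 of all genes. Control replicate 2 gave the lowest of each (4 higher, 0 lower), control replicate 1 and Sirt1 deleted replicate 2 both 5 and 1, control replicate 4 5 higher, and control replicate 5 7 lower. The cause was not tested. Of genes called with or without the alternative, sign changed under the slope covariate for Mcm9 (0.010), Gins4 (-0.0026), Topbp1 (0.044), Pola1 (0.15) and Rfc1 (0.039), under the correction for Pold2 (-0.042), and under the median-transcript correction for Pold1 (-0.049), Rfc1 (0.021) and Rrm1 (0.21, called). No paired analysis was possible because the replicate numbers match no control with a Sirt1 deleted spleen. All 49 genes stood far above the minimum of 10 (lowest value 697), and 5 libraries per group at the estimated depth set the precision.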
